A study of Mus musculus with 6 samples.

Results

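The extracellular matrix genes studied here comprise 44 genes of collagen and laminin chains, matrix glycoproteins, proteoglycans, matrix-modifying enzymes and the PDGF receptors of mesenchymal cells. A gene was a member when an array probe set carried its symbol, and each gene was read from its probe set with the highest mean intensity over the 6 arrays. Of the 44 genes, 43 had a probe set, with 93 probe sets in all, and Fbn1 was not analysed here. The array table named 45101 probe sets, 64 of them controls.

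The extracellular matrix is built from fibrillar collagens, laid down mainly by fibroblasts and pericytes, and from basement membranes, sheets of laminin and collagen IV that underlie epithelium and endothelium. In the thymus such matrix surrounds vessels, septa and epithelium, and thymocytes move along it through integrins. T cells themselves are not known as a main source of fibrillar collagen, although they express matrix receptors and some matrix-modifying proteins.

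The RNA came from 6 primary thymic lymphomas, each from its own mouse and on its own array. Every mouse was homozygous for the IkL allele of Ikaros, written IkL/L, and carried CD4-Cre, a transgene that expresses Cre recombinase in developing T cells. The 3 Notch1f/f mice had both Notch1 alleles floxed, which the labels describe as a deletion of promoter and exon 1 sequence, and were 8 to 10 weeks old. The 3 Notch1+/+ mice had wild-type Notch1 and were 18 to 20 weeks old, so that age and genotype cannot be told apart. Tumour cells were collected by disrupting the tissue between frosted slides, no sort is mentioned, and the labels call them transformed T cells. In such bulk RNA, fewer cells of a type and less RNA per cell cannot be told apart.

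Values are linear MAS5 intensities, and those of different probe sets do not rank transcripts. T cell markers were high in every tumour, with summed intensities of 29870 to 35480 in Notch1f/f tumours and 27090 to 28640 in Notch1+/+ tumours over 18 measured genes. Notch1 itself read 3043 to 3419 in Notch1f/f tumours and 2532 to 3637 in Notch1+/+ tumours on its brighter probe set, and 1346 to 2212 and 568 to 1793 in these groups on the other. Where on the gene these lie was not looked up, so they do not check the deletion. Precision is limited throughout by having 3 arrays per genotype.

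Of the 43 matrix genes measured, 32 (74.4%) did not pass an intensity of 50 in any tumour, against 60.2% of all probe sets. At least 1 tumour passed 100 for 8 members and for 30.3% of all probe sets. The members' mean intensities had a median of 12.6, against 14.3 for all probe sets. Members, and genes of the lists below, were read from their brightest probe set, while the background counts every probe set, so these levels are not like for like. The 8 members past 100 were Lama3, Col1a2, Col3a1, Fn1, Fbln1, Fbln2, Timp2 and Pdgfrb. Of these, Fbln1, Timp2 and Pdgfrb passed 100 in all 6 tumours, as did 18.7% of all probe sets. A filter on dim probe sets, at the 40th percentile of mean log2 values, kept 33 of the 43. This mean was over all 6 tumours, so a member could pass through the group where it was high, as Lama3, Sparc and Mgp did. The 10 below the filter were Lama2, Lama4, Lamc1, Col18a1, Nid2, Thbs2, Tnc, Sparcl1, Timp3 and Pdgfra, and none of them passed 21.9 on any array. Without detection calls it is not known which of these low values lie above background. Of the 33 kept, 25 had an intensity of 10 or less in at least 1 tumour, so that orders and gaps among such values may lie within background.

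The Notch1f/f lymphomas were then set against the Notch1+/+ ones, gene by gene. No matrix gene passed an adjusted p of 0.05 in limma over the 27022 probe sets tested, where 0.0185% of all probe sets did. Lama3 passed at 0.10, as did 0.148% of all probe sets. At an unadjusted p under 0.05, 2 of the 33 were higher in the Notch1f/f tumours, Lama3 and Timp2, where the share among all probe sets was 5.94%. The 4 that were lower at this level were Col1a2, Col5a2, Sparc and Mgp, where the share among all probe sets was 7.60%. These shares of the members, 6.06% and 12.1%, lay close to the background for higher values and somewhat above it for lower ones.

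Without overlap between the groups, 2 genes were higher in Notch1f/f tumours (Lama3, Timp2) and 2 lower (Col5a2, Mgp), each 6.06% of the 33. Among all probe sets these shares were 8.13% higher and 10.4% lower. A log2 difference, Notch1f/f minus Notch1+/+, below 0 was found in 25 of the 33 members (75.8%) and in 55.0% of all probe sets. The members' median was -0.14 and that of all probe sets -0.04. With quantile normalisation or median centring, 21 of the 33 lay below 0 (63.6%). The lower counts changed with single tumours left out. A count without overlap can only stay or rise when a tumour is left out. Without Notch1+/+ tumour 1, 12 members were lower without overlap, where 18.8% of all probe sets were, and 11 had an unadjusted p under 0.05, where 8.36% did. Without Notch1+/+ tumour 2, 1 had such a p, where 4.30% of all probe sets did, and without Notch1f/f tumour 1 or 2 there were 2 (4.67% and 11.1%). Leaving out Notch1+/+ tumour 3 or Notch1f/f tumour 3 gave 5 and 10 lower without overlap (16.2% and 14.0% of all probe sets). On the higher side, 4 members had an unadjusted p under 0.05 without Notch1+/+ tumour 2 (4.31% of all probe sets), and 4 did not overlap without Notch1f/f tumour 2 (15.9%).

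**Figure D1:**
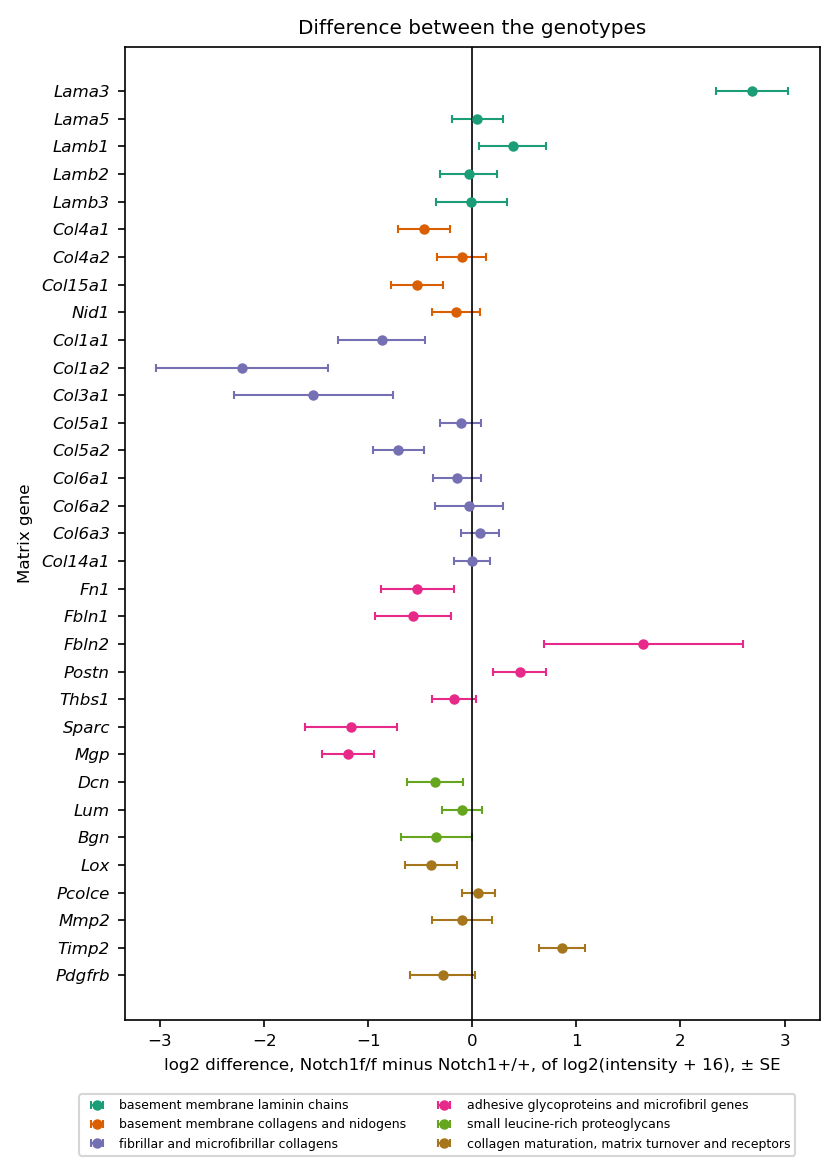
Log2 difference of log2(intensity + 16) on the x axis, Notch1f/f minus Notch1+/+, with its SE, for the 33 matrix genes that passed the filter, coloured by role (3 tumours per group). Lama3, at 2.69, lies farthest to the right and Col1a2, at -2.21, farthest to the left with a wide error bar.

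The laminins are trimers of an alpha, a beta and a gamma chain that form the first layer of a basement membrane. Lama3, the alpha-3 chain of epithelial laminin-332, had intensities of 58.6, 179 and 117 in Notch1f/f tumours 1 to 3, against 1.1, 6.3 and 3.0 in Notch1+/+ tumours 1 to 3. Every Notch1f/f tumour lay far above every Notch1+/+ tumour. The means were 118 ± 60.2 (SD, n = 3) in Notch1f/f tumours and 3.47 ± 2.63 in Notch1+/+ tumours, and the log2 difference was 2.69 ± 0.35 (SE; limma adjusted p = 0.0693). It passed 0.05 without Notch1f/f tumour 1 (limma adjusted p = 0.0440, where 0.0111% of all probe sets passed), with array weights (0.0441) and with median centring (0.0484). From so low a level the log2 difference depended on the value added, and was 4.78 with a pseudocount of 1 and 1.38 with 64. The Notch1+/+ values may lie within background, so the true size of the difference is not known. A dimmer probe set of the same gene, under the filter, did not separate the groups, at 0.6 to 9.9 in Notch1f/f tumours and 3.5 to 9.9 in Notch1+/+ tumours.

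Lamb3, the beta-3 chain of laminin-332, did not follow the pattern of Lama3. Singled out here as its partner after the values were seen, it had 12.5, 21.7 and 15.7 in Notch1f/f tumours and 32.2, 23.3 and 2.3 in Notch1+/+ tumours, with groups that overlap. Lamb1, the beta-1 chain of most vessel and stromal laminins, had 57.7, 48.1 and 41.6 in Notch1f/f tumours and 34.3, 16.5 and 58.2 in Notch1+/+ tumours (log2 difference 0.39 ± 0.32, limma adjusted p = 0.605). Notch1+/+ tumour 3 was as high as the highest Notch1f/f tumour. Lamb2, another beta chain, was at 29.7 to 44.9 in Notch1f/f tumours and 24.9 to 53.2 in Notch1+/+ tumours. Lama5, an alpha chain of many epithelia, was at 2.1 to 15.3 in Notch1f/f tumours and 6.1 to 14.5 in Notch1+/+ tumours, so that both overlapped. Lama2, the chain of muscle laminin, Lama4, that of endothelial laminin, and Lamc1, the gamma chain common to most laminins, did not pass 14.0 in any tumour.

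Among the other basement membrane genes, 4 passed the filter, all with a log2 difference below 0, as had 55.0% of all probe sets. None had an unadjusted p under 0.05, where 7.60% of all probe sets were lower. Col4a1, the alpha-1 chain of network-forming collagen IV, had 7.1, 7.7 and 12.5 in Notch1f/f tumours and 7.8, 25.1 and 25.6 in Notch1+/+ tumours. Notch1+/+ tumours 2 and 3 were the high ones, and Notch1+/+ tumour 1 lay within the Notch1f/f range (log2 difference -0.46 ± 0.25, limma adjusted p = 0.439). Col4a2, whose chain assembles with that of Col4a1, averaged 11.3 ± 4.06 in Notch1f/f tumours and 13.8 ± 7.90 in Notch1+/+ tumours (SD, n = 3 each). Its groups overlapped. Col15a1, a collagen of the outer basement membrane zone, had 11.8, 11.2 and 3.4 in Notch1f/f tumours and 29.0, 20.6 and 10.8 in Notch1+/+ tumours (log2 difference -0.53 ± 0.25, limma adjusted p = 0.383). Here Notch1+/+ tumour 1 was the highest of the 6. Nid1, which links laminin to collagen IV, was at 4.6 to 11.9 in Notch1f/f tumours and 4.3 to 19.3 in Notch1+/+ tumours.

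Collagen I, the main fibril of connective tissue, is a trimer of Col1a1 and Col1a2 chains, and collagen III, from Col3a1, accompanies it in soft tissue. Intensities of these genes spread widely between tumours. Upstream windows of Col1a2 and Col3a1 are shown because both genes were highest in Notch1+/+ tumour 2, while Notch1+/+ tumours 1 and 3 stood in opposite order for them. Each is the 250 bases before the RefSeq start in GRCm38.p6, on the plus strand, at chr6:4505368-4505617 for Col1a2 and chr1:45311288-45311537 for Col3a1. Capitals mark matches on either strand to the CCAAT box (CCAAT), the GC box (GGGCGG) and the TATA box (TATAAA).
Col1a2: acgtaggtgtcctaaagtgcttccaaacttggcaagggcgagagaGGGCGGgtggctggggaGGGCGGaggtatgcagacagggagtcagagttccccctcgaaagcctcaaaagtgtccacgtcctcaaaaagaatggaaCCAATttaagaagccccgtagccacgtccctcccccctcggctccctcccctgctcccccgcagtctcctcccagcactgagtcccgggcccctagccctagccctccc
Col3a1: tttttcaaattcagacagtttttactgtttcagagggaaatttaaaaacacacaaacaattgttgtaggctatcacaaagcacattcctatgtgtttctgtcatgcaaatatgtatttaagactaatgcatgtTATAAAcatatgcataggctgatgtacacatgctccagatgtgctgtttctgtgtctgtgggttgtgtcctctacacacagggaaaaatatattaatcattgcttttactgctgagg
The Col1a2 window held 2 GC boxes and 1 CCAAT box, which lies 109 bases before the start, and had a GC content of 62.0%. The Col3a1 window was AT-rich, with a GC content of 35.2%, and held 1 TATAAA, 117 bases before the start. No match overlapped another. Over 32851 windows of the same length in the table, 33.8% held a CCAAT box, 32.7% a GC box and 12.4% TATAAA. Counted per gene with any of its windows, 8 of 28 members held a CCAAT box, 16 a GC box and 4 TATAAA, where 37.5%, 35.4% and 14.3% of all 27025 genes did. Of these 28, 1 held the AP-1 letters TGANTCA and 9 the letters TGGGAA, a core that Ikaros and the Notch partner RBPJ both recognise, where 7.82% and 24.1% of all genes did. Neither was found in the windows printed here, and a match or its absence is a description of letters only.

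Col1a2 had intensities of 13.2, 39.8 and 71.3 in Notch1f/f tumours 1 to 3, against 190, 978 and 53.3 in Notch1+/+ tumours 1 to 3. Notch1+/+ tumour 2 stood 5.14-fold above the next, and Notch1+/+ tumour 3 lay inside the Notch1f/f range. The log2 difference was -2.21 ± 0.82 (limma unadjusted p = 0.0244, adjusted p = 0.316), and it was -1.20 without Notch1+/+ tumour 2. The second brightest probe set of Col1a2 ordered the Notch1+/+ tumours the same way, at 121, 620 and 27.4, and had 9.3, 28.0 and 24.1 in the Notch1f/f tumours.

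Col1a1 did not share this order. Named as the partner of Col1a2 after its values were seen, it had 11.6, 1.4 and 0.7 in Notch1f/f tumours, against 1.6, 42.7 and 31.6 in Notch1+/+ tumours. Notch1+/+ tumour 1, second highest for Col1a2, lay within the Notch1f/f range for Col1a1, and Notch1+/+ tumour 3 was high (log2 difference -0.87 ± 0.42, limma adjusted p = 0.392). Col3a1 ordered the Notch1+/+ tumours as Col1a1 did, with 14.7, 27.6 and 9.0 in Notch1f/f tumours and 4.5, 200.5 and 164 in Notch1+/+ tumours. Its Notch1+/+ tumours 2 and 3 were far above the other 4, and Notch1+/+ tumour 1 was the lowest of all (log2 difference -1.53 ± 0.77, limma adjusted p = 0.409). Without Notch1+/+ tumour 1 this difference was -2.62. A dimmer probe set of Col3a1, under the filter, placed tumour 1 otherwise, at 1.9, 5.7 and 3.1 in Notch1f/f tumours and 9.3, 15.1 and 11.2 in Notch1+/+ tumours, without overlap.

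Collagen V nucleates collagen I fibrils, and its alpha-2 chain gene had groups that did not overlap. Col5a2 had 0.5, 5.9 and 9.7 in Notch1f/f tumours and 9.8, 23.8 and 23.6 in Notch1+/+ tumours, a gap of 0.1 between the nearest tumours of the groups. The log2 difference was -0.71 ± 0.24 (limma unadjusted p = 0.0166, adjusted p = 0.297). Col5a1, the other main chain, was at 15.2 to 21.6 in Notch1f/f tumours and 18.3 to 24.7 in Notch1+/+ tumours. The microfibril chains Col6a1, Col6a2 and Col6a3 and the fibril-associated Col14a1 also overlapped, with log2 differences within 0.15 of 0 and no intensity over 38.8. Over the 9 fibrillar and microfibrillar collagens, 8 had a difference below 0, and the median of the 9 was -0.14. Among all probe sets 55.0% lay below 0, with a median of -0.04. The 8 include Col6a2 at -0.032 and Col14a1 at -0.0003, both nearer 0 than that median.

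**Figure D2:**
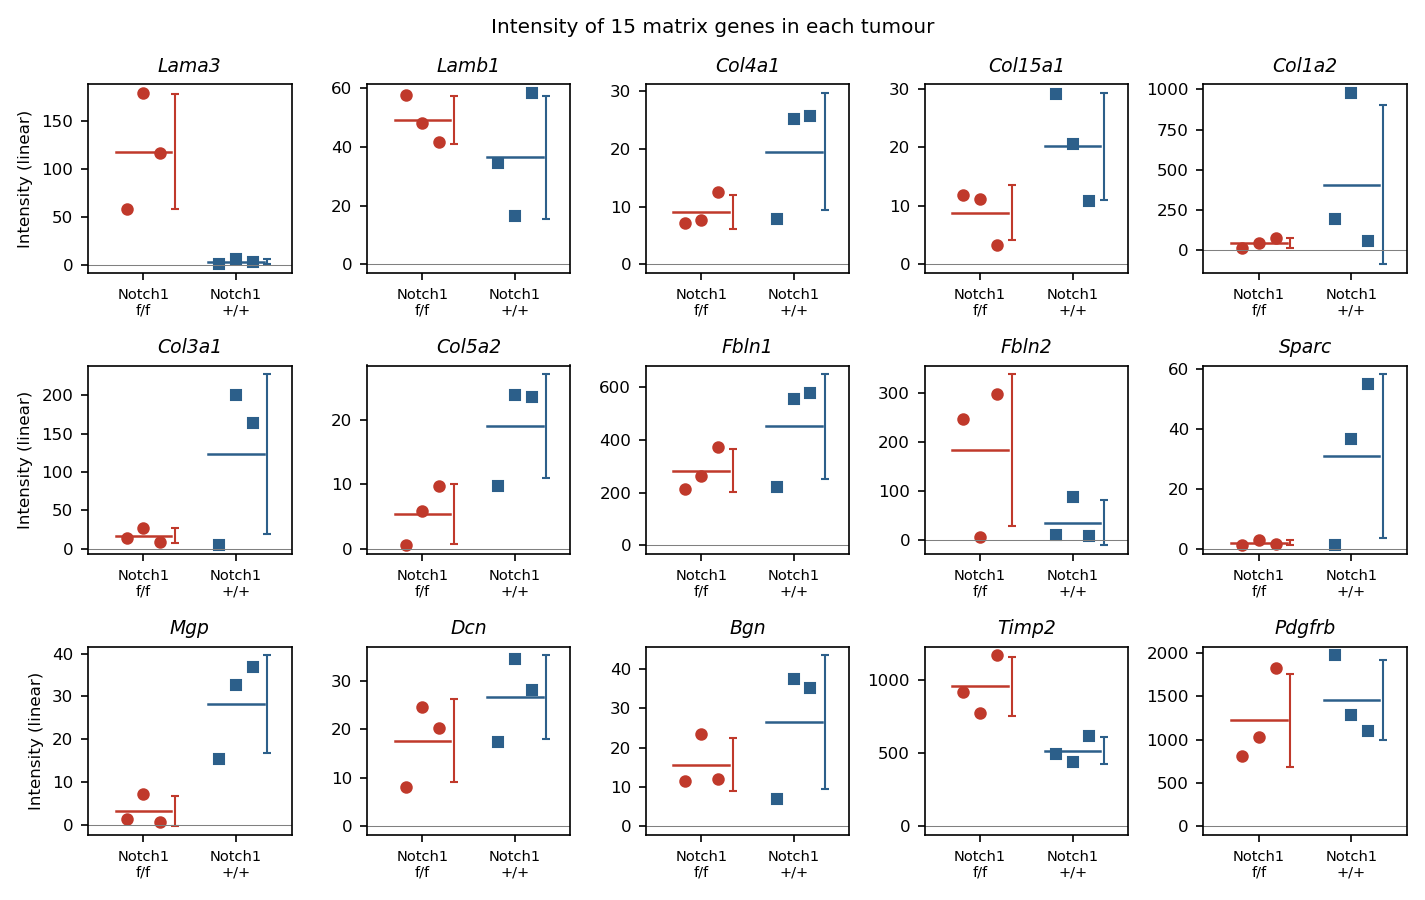
Linear intensity of 15 matrix genes on the y axis, 1 panel per gene, with 3 Notch1f/f tumours (circles) left of 3 Notch1+/+ tumours (squares), horizontal lines at the means and bars of 1 SD. Lama3 and Timp2 are separated with Notch1f/f higher, Mgp and Col5a2 with Notch1f/f lower, and in Col3a1 and Sparc Notch1+/+ tumour 1 sits with the Notch1f/f tumours.

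Matrix glycoproteins connect fibrils to cells, and this was the group with the lowest median difference, -0.53 over the 7 that passed the filter. Mgp, matrix Gla protein, an inhibitor of calcification made by vessel and connective tissue cells, had 1.4, 7.1 and 0.7 in Notch1f/f tumours, against 15.3, 32.6 and 36.9 in Notch1+/+ tumours. All 3 Notch1f/f tumours lay below all 3 Notch1+/+ tumours. The log2 difference was -1.19 ± 0.25 (limma unadjusted p = 8.37e-04, adjusted p = 0.180), and its adjusted p ranged from 0.0693 to 0.553 over the alternatives. Sparc, a collagen-binding protein of fibroblasts and endothelium also known as osteonectin, had 1.2, 2.8 and 1.6 in Notch1f/f tumours and 1.1, 36.6 and 55.0 in Notch1+/+ tumours. Of the 6 tumours, Notch1+/+ tumours 2 and 3 alone were above 2.8 on this probe set (log2 difference -1.16 ± 0.44, limma adjusted p = 0.319). A second probe set of Sparc had the same pair high, at 38.5 and 25.0, while probe set 3 had the opposite sign without passing, at 10.9 to 13.2 in Notch1f/f tumours and 0.9 to 14.5 in Notch1+/+ tumours.

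The fibulins are calcium-binding glycoproteins of elastic fibres and basement membranes. Fbln1 was well above 100 in every tumour, at 211, 262 and 371 in Notch1f/f tumours and 222, 552 and 576 in Notch1+/+ tumours. Notch1+/+ tumours 2 and 3 were again the high ones, and Notch1+/+ tumour 1 lay near the bottom (log2 difference -0.57 ± 0.37, limma adjusted p = 0.512). Fbln2 was high in some tumours and near 0 in others, at 246, 6.8 and 296 in Notch1f/f tumours and 9.3, 88.0 and 7.2 in Notch1+/+ tumours. It was high in Notch1f/f tumours 1 and 3, intermediate in Notch1+/+ tumour 2 and low in the remaining 3, so that genotype did not divide the tumours (log2 difference 1.64 ± 0.95, limma adjusted p = 0.466).

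Fn1, fibronectin, named after its values were seen, had 28.3, 29.5 and 41.2 in Notch1f/f tumours and 30.5, 103 and 46.6 in Notch1+/+ tumours (log2 difference -0.53 ± 0.35, limma adjusted p = 0.522). Its single high value was that of Notch1+/+ tumour 2. Postn, periostin, was at 8.5 to 18.9 in Notch1f/f tumours and 1.5 to 15.5 in Notch1+/+ tumours, and overlapped. Thbs1, thrombospondin 1, averaged 7.37 ± 6.61 in Notch1f/f tumours and 9.73 ± 1.00 in Notch1+/+ tumours (SD, n = 3 each). The small leucine-rich proteoglycans, which coat collagen fibrils, all lay below 0 without passing, where 55.0% of all probe sets lay below 0. Dcn, decorin, had 8.1, 24.7 and 20.2 in Notch1f/f tumours and 17.4, 34.5 and 28.1 in Notch1+/+ tumours (log2 difference -0.36 ± 0.27, limma adjusted p = 0.572). Bgn, biglycan, had 11.5, 23.6 and 12.1 in Notch1f/f tumours and 6.9, 37.6 and 35.1 in Notch1+/+ tumours (log2 difference -0.35 ± 0.34, limma adjusted p = 0.671). In both, Notch1+/+ tumours 2 and 3 held the highest values and the groups overlapped.

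Timp2 and Pdgfrb, like Fbln1, passed 100 in every tumour. Timp2 encodes a secreted inhibitor of matrix metalloproteinases that also takes part in activating pro-MMP2. Its window, at chr11:118355412-118355661 on the minus strand, is shown to set it beside those of the collagens, with the same capitals.
Timp2: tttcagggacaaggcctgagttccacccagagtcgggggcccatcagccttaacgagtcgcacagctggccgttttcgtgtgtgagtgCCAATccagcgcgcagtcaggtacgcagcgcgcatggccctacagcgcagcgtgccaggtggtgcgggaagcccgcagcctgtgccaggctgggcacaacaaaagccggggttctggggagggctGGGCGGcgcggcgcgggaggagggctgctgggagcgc
This window was the most GC-rich of those printed, at 68.0%, and held 1 CCAAT box and 1 GC box. Timp2 had intensities of 918, 775 and 1168 in Notch1f/f tumours 1 to 3, against 492, 438.5 and 617 in Notch1+/+ tumours 1 to 3. Each Notch1f/f tumour was above each Notch1+/+ tumour, at means of 954 ± 198.5 (SD, n = 3) in Notch1f/f tumours and 516 ± 91.6 in Notch1+/+ tumours. The log2 difference was 0.86 ± 0.22 (limma unadjusted p = 0.00328, adjusted p = 0.240).

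Timp2 was read by 6 probe sets, and the groups did not overlap on 4 of them. A pair of the others gave log2 differences close to the first, at 0.89 ± 0.21 and 0.94 ± 0.26 (limma adjusted p = 0.212 and 0.266). The other one without overlap differed less, at 0.26 ± 0.18, with 518 to 595 in Notch1f/f tumours and 435 to 505 in Notch1+/+ tumours. Probe set 5 overlapped, at 61.6 to 75.4 in Notch1f/f tumours and 50.7 to 85.1 in Notch1+/+ tumours, and probe set 6 was too dim to be tested. With the mean over its probe sets the difference was 0.48 (limma adjusted p = 0.377).

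**Figure D3:**
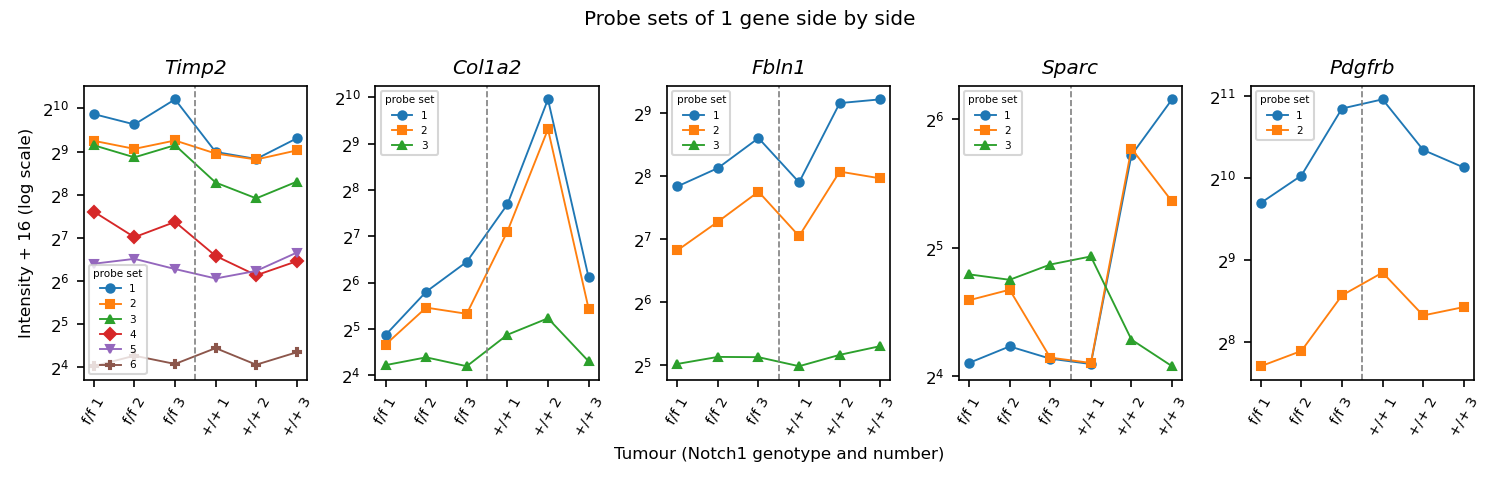
Intensity plus 16 on a log scale for each probe set of Timp2, Col1a2, Fbln1, Sparc and Pdgfrb, with Notch1f/f tumours left of the dashed line, Notch1+/+ tumours right of it, and probe sets numbered by mean intensity. The brighter probe sets of a gene run in parallel, while probe set 3 of Sparc runs against the first 2 and probe set 5 of Timp2 does not separate the groups.

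Pdgfrb, the receptor of PDGF-B that marks pericytes and fibroblasts, had 813, 1029 and 1827 in Notch1f/f tumours and 1976, 1282 and 1103 in Notch1+/+ tumours. The groups overlapped widely (log2 difference -0.29 ± 0.32, limma adjusted p = 0.709), and a second probe set was likewise bright everywhere, at 192 to 363 in Notch1f/f tumours and 304 to 444 in Notch1+/+ tumours. Its tumour order was not that of the collagens, since Notch1+/+ tumour 1, low for Col1a1 and Col3a1, had the highest Pdgfrb. Pdgfra, the related receptor of fibroblasts, did not pass 15.6 in any tumour on any of its 3 probe sets, all under the filter. That value, and 11.1, came from Notch1+/+ tumours 2 and 3 on its second brightest probe set, where the Notch1f/f tumours had 0.8 to 5.1. Lox, the enzyme that crosslinks collagen, named after its values were seen, had 3.6, 7.1 and 15.1 in Notch1f/f tumours and 7.6, 21.0 and 21.0 in Notch1+/+ tumours (log2 difference -0.40 ± 0.25, limma adjusted p = 0.497). Mmp2, a gelatinase, overlapped, at 2.0 to 24.1 in Notch1f/f tumours and 8.0 to 13.1 in Notch1+/+ tumours, and so did Pcolce, an enhancer of procollagen processing, at 7.1 to 10.4 in Notch1f/f tumours and 7.0 to 8.7 in Notch1+/+ tumours.

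A pattern of single tumours recurred through these roles. In 12 of the 33 tested members (36.4%), the highest 2 of the 6 values were those of Notch1+/+ tumours 2 and 3, where 12.7% of all probe sets had this pair on top. They were Col4a1, Col1a1, Col3a1, Col5a2, Col6a2, Fn1, Fbln1, Sparc, Mgp, Dcn, Bgn and Lox, and in 2 of them, Col5a2 and Mgp, Notch1+/+ tumour 1 also lay above all Notch1f/f tumours. This pair was singled out after the values were seen. The filter used means over all 6 tumours, and Col1a1, Col5a2, Sparc and Mgp passed it through Notch1+/+ tumours 2 and 3. The share of members with this pair on top is therefore not a test, and members under the filter were not counted. Notch1+/+ tumour 2 held the highest value of 11 members and Notch1+/+ tumour 3 of 9, against 4 for Notch1+/+ tumour 1, and the Notch1f/f tumours 1, 2 and 3 held 1, 4 and 4. Of all probe sets, 21.0%, 16.2% and 16.7% were highest in Notch1+/+ tumours 1, 2 and 3. In Notch1f/f tumours 1, 2 and 3 these shares were 17.4%, 9.78% and 18.9%. Leaving out the 5 members with a mean over 100, the other 38 summed to 412, 653 and 552 in Notch1f/f tumours 1 to 3, against 380, 916 and 809.5 in Notch1+/+ tumours 1 to 3. By this sum, though not by the count of highest values, Notch1+/+ tumour 1 was below every Notch1f/f tumour. Its place below Notch1f/f tumour 1 rested on Lama3, which added 58.6 there and 1.1 in Notch1+/+ tumour 1.

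**Figure D4:**
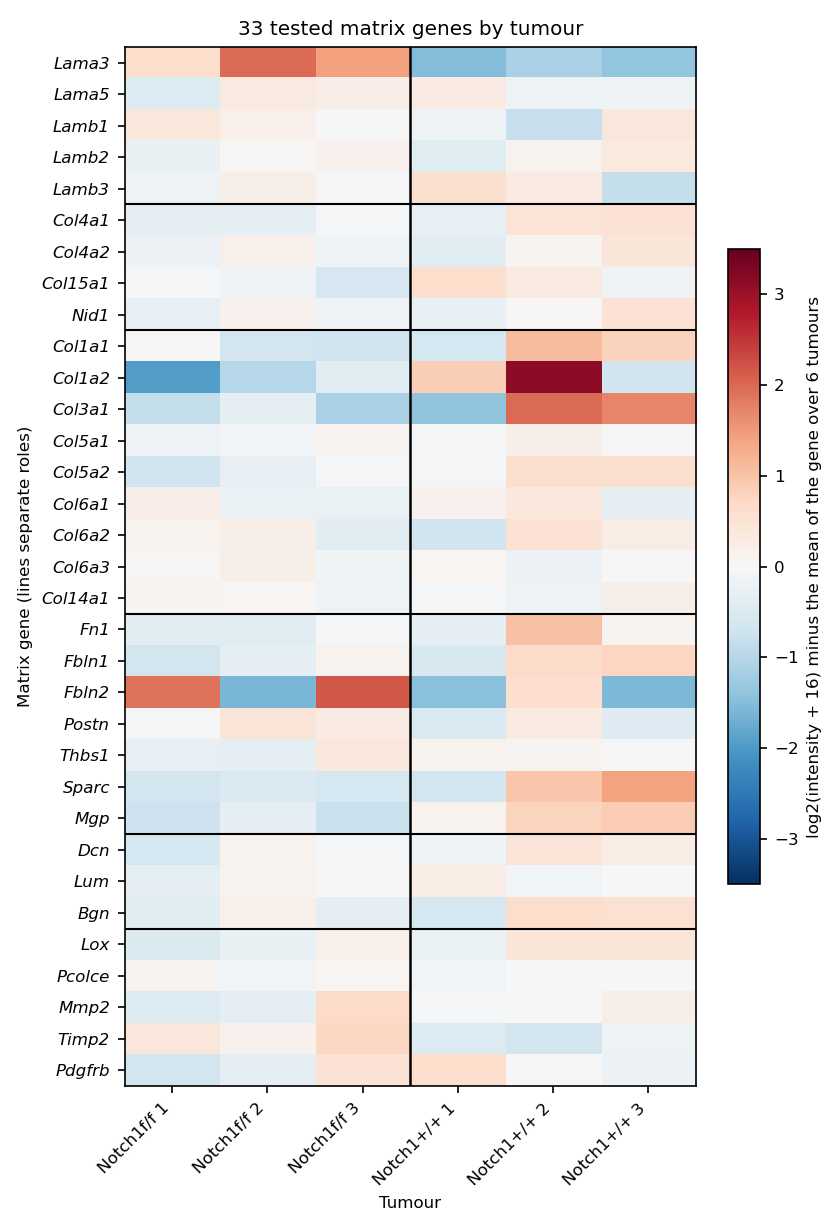
Log2(intensity + 16) minus the gene's mean over the 6 tumours for the 33 tested matrix genes (rows, in blocks of role) in each tumour (columns, Notch1f/f left of Notch1+/+). Red cells for Col1a1, Col3a1 and Sparc fall in Notch1+/+ tumours 2 and 3, and the Lama3 row is red in all 3 Notch1f/f tumours.

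Markers of the cells that could bring matrix RNA into the samples were set beside this pattern. The 14 fibroblast markers summed to 4625, 4918 and 5986 in Notch1f/f tumours and 4152, 5542 and 4734 in Notch1+/+ tumours, most of it Thy1 and Vim, which T cells also express. The other 12 summed to 82.5, 73.5 and 118 in Notch1f/f tumours and 91.6, 136 and 118 in Notch1+/+ tumours. Of the 14, 7 did not pass 10 in any tumour (Twist1, Twist2, Prrx1, Tcf21, Dpt, Cd34 and Pi16), where the share among all probe sets was 31.0%. The 10 pericyte and smooth muscle markers summed to 1624, 1165 and 1131 in Notch1f/f tumours and 1047, 857 and 1022 in Notch1+/+ tumours, most of it Notch3, a receptor that immature T cells also express. Without Notch3, left out after its values were seen, the direction turned, with 68.6, 74.6 and 94.7 in Notch1f/f tumours and 115, 232 and 119 in Notch1+/+ tumours. Neither sum overlapped between the groups, but without Notch3 this separation rested on Mcam. With Mcam left out as well, the sums of the groups overlapped. Of the 10 markers, 2, Tagln and Cnn1, did not pass 10 in any tumour. Most of the gap without Notch3 came from Mcam, an adhesion molecule of vessel walls, at 3.3, 10.7 and 3.6 in Notch1f/f tumours and 52.9, 94.3 and 41.8 in Notch1+/+ tumours (log2 difference -1.81, limma adjusted p = 0.0981). The 14 endothelial markers summed to 347 to 459 in Notch1f/f tumours and 274 to 594 in Notch1+/+ tumours, with Notch1+/+ tumour 2 the highest and Notch1+/+ tumour 3 the lowest. Of these, 4 did not pass 10 in any tumour (Cdh5, Tek, Tie1 and Vwf).

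The 14 thymic epithelial markers summed to 159 to 213 in Notch1f/f tumours and 120 to 234 in Notch1+/+ tumours, and 4 of them did not pass 10 in any tumour (Krt14, Krt17, Psmb11 and Trp63). Macrophage markers went the other way from the collagens, with 12 genes summing to 1460 to 2887 in Notch1f/f tumours and 286 to 958 in Notch1+/+ tumours. Notch1+/+ tumour 1 had the lowest macrophage sum. It also had the lowest sum of the 38 matrix genes left without the brightest members. Its place there below Notch1f/f tumour 1 rested on Lama3, and a link between the sums was not tested. Sums over 7 adipocyte markers overlapped, at 129 to 144 in Notch1f/f tumours and 30.3 to 174 in Notch1+/+ tumours. So did those over 5 platelet markers, at 116.5 to 221 in Notch1f/f tumours and 101 to 133 in Notch1+/+ tumours, and over 4 erythroid markers, at 26.8 to 66.1 in Notch1f/f tumours and 17.8 to 83.2 in Notch1+/+ tumours. The 7 B cell markers summed to 1308 to 3443 in Notch1f/f tumours and 340 to 1101 in Notch1+/+ tumours, most of it Ighm. At an unadjusted p under 0.05, 5.94% of all probe sets were higher and 7.60% lower. Of 12 tested macrophage markers, 6 were higher and 1 lower at this level, and of 5 B cell markers 2 were higher. Of 18 T cell markers, 2 were higher and 1 lower, of 4 pericyte markers 1 higher and 1 lower, and of 6 fibroblast markers 1 lower. There was none among the endothelial, epithelial, adipocyte, platelet and erythroid markers, of which 5, 6, 2, 3 and 3 were tested. No gene of any marker list passed an adjusted p of 0.05 in limma. The part of any of these cells in the matrix values was not tested.

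Other genes of the matrix, listed beside the 44, gave few differences, and none of them passed an adjusted p of 0.05 in limma. For the directions given below, 55.0% of all probe sets lay below 0. Of 24 further collagens, 9 passed the filter, 2 with a difference above 0 and 7 below, and none had an unadjusted p under 0.05. Of 12 further basement membrane genes measured, 7 passed the filter, 3 above and 4 below 0, again with none at that level. Agrn, agrin, came nearest, at 143, 84.5 and 76.5 in Notch1f/f tumours and 170, 124 and 200.5 in Notch1+/+ tumours. Among 14 tested glycoproteins and proteoglycans, 4 lay above 0 and 10 below. At an unadjusted p under 0.05, 1 was higher and 2 lower, where 5.94% and 7.60% of all probe sets were. Tgfbi, a TGF-beta-induced adhesion protein, was the higher one (log2 difference 1.05, limma adjusted p = 0.316). The lower ones were Matn2, a matrilin (-0.97, adjusted p = 0.295), and Ccn2, connective tissue growth factor (-0.69, adjusted p = 0.367). Of 11 tested collagen processing genes, 10 lay below 0, and 1 was lower at an unadjusted p under 0.05, where 7.60% of all probe sets were. It was Crtap, a cofactor of proline hydroxylation, at 67.6 to 125 in Notch1f/f tumours and 137 to 183 in Notch1+/+ tumours (log2 difference -0.63, limma adjusted p = 0.353). Without overlap 2 were lower, where 10.4% of all probe sets were. They were Crtap and Plod3, named after its values were seen, at 65.6 to 120 in Notch1f/f tumours and 125 to 136.5 in Notch1+/+ tumours.

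Proteases and receptors of the matrix are made by lymphoid cells too. Of 13 tested proteases and inhibitors, 7 were above 0 and 6 below. At an unadjusted p under 0.05, 2 were higher, where 5.94% of all probe sets were. They were the sheddases Adam12 (log2 difference 1.36, limma adjusted p = 0.340) and Adam19 (1.29, adjusted p = 0.350). Of 17 tested receptors, 10 lay above 0 and 7 below, and 4 were higher at that level with groups that did not overlap. Among all probe sets, 5.94% were higher at that level and 8.13% were higher without overlap. A further 1 receptor was lower without overlap, where 10.4% of all probe sets were. Itga4, the integrin alpha-4 chain that binds fibronectin and VCAM1, had 246, 368 and 426 in Notch1f/f tumours and 86.0, 151 and 134 in Notch1+/+ tumours (log2 difference 1.37, limma adjusted p = 0.184). Cd47, an integrin-associated receptor of thrombospondin, had 1345, 1179 and 1764 in Notch1f/f tumours and 799, 617 and 986 in Notch1+/+ tumours (0.83, adjusted p = 0.263). In both genes the lowest Notch1f/f tumour was above the highest Notch1+/+ tumour. The syndecans Sdc3, named after its values were seen, and Sdc4 were the other 2 (0.86 and 0.93, adjusted p = 0.307 and 0.294).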

How the data were processed

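Biotin-labelled RNA of 6 thymic lymphomas was hybridised to Affymetrix arrays. Intensity values deposited by the authors are MAS5 signals (per the submitters' processing notes, version not given in the sources used here). In the deposited table the mean without the lowest and highest 2% was 100 on every array. Detection calls were not used here, so which dim values lie above background is not known. Symbols came from the platform annotation, and chromosomes and upstream windows from RefSeq tables (GRCm38.p6).

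Each intensity plus 16 was taken to log2. Controls and probe sets with a mean log2 value under the 40th percentile (4.56, an intensity of 7.60) were left out. The other 27022 were fitted in limma 3.58.1 (R 4.3.3; lmFit, then eBayes with a trend), Notch1f/f minus Notch1+/+, two-sided, without covariates, as the labels give no batch or pairing, with Benjamini-Hochberg adjustment over all. The script was tested on simulated arrays. No set test was made.

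The members and lists were chosen with earlier results of these data known. Every tumour's value is given for members without overlap and at least 2-fold different, at an unadjusted p under 0.05, among the 2 highest means of their role, or with 1 tumour at least 4 times the next and at least 50. Genes named from the other lists came mostly from the 3 smallest p-values of a list and, for markers, the 2 highest means. From several marker lists no gene was named on these grounds. Markers that did not pass 10 in any tumour are named too, a cut set after the values were seen. Alternatives were a pseudocount of 1 or 64, no filter or the 60th percentile, a fit without the trend, array weights, median centring or quantile normalisation of the arrays, averaging a gene's probe sets, a threshold of 0.10 and each tumour left out. Python 3.11.15 and matplotlib 3.10.9 drew the figures.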

Additional observations from a re-analysis of the deposited data

How the results depend on the processing

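Of the named genes, 29 were followed under 15 alternative settings, with 418 values, as some genes fell under the filter of a setting. None of these values changed the direction of a difference. Members near 0, such as Lamb3, were not among the 29. Of the 33 members, 25 lay below 0 in the main fit and 21 with quantile normalisation or median centring, so that some changed sign. Of the 418 values, 3 brought a gene past an adjusted p of 0.05 in limma. All 3 were of Lama3, under median centring, array weights and without Notch1f/f tumour 1, and its adjusted p ranged from 0.0440 to 0.224. The count of members past the threshold was therefore 1 with median centring, 1 with array weights and 1 at a threshold of 0.10, and 0 to 1 with a tumour left out. The members' median log2 difference of -0.14 was -0.29 with a pseudocount of 1, -0.051 with 64 and -0.23 with array weights, and -0.25 to -0.061 with a tumour left out. The 4 members lower at an unadjusted p under 0.05 numbered 1 with the filter at the 60th percentile, where 10 members were tested, 10 with array weights and 2 when probe sets were averaged per gene, and 1 to 11 with a tumour left out. The 2 lower without overlap numbered 0 with the 60th percentile filter, 1 with quantile normalisation, 1 with median centring and 1 when probe sets were averaged per gene, and 2 to 12 with a tumour left out. The higher counts, 2 each, were 2 to 4 with a tumour left out. Leaving out a tumour lets fewer values overlap by construction. The cause of the other shifts was not tested. No paired analysis was possible because the labels give no replicate numbers shared between groups. Detection calls were not used, so signal over background is unknown for low values, such as those of Mgp, Sparc, Col5a2 and, in Notch1+/+ tumours, Lama3.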
